A study of Mus musculus with 8 samples.

Results

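The genes described here are 10 cardiac developmental transcription factors, Gata4, Gata6, Tbx2, Tbx5, Tbx20, Hand2, Mef2a, Mef2c, Meis1 and Nkx2-5. They were taken by gene symbol from a table of 22274 genes, and each had 1 row in it. The rule for taking them used their names alone, although the set of names was chosen with earlier results of these data known. RNA-seq had been performed on primary murine cardiac fibroblasts, with 4 libraries labelled GFP and 4 labelled OEIRF7. In both groups the cells had received TGF-β (TGF-b in the labels), the cytokine that turns fibroblasts into contractile, matrix-producing myofibroblasts, so no untreated cells were among these libraries. Per the paper, the cells behind OEIRF7 carried a viral vector for FLAG-tagged interferon regulatory factor 7 (IRF7), and the control cells carried the empty vector. The paper calls the vector an adenovirus, whereas the deposited design text calls it an adeno-associated virus. The reagents listed in the paper hold an adenoviral vector for human IRF7 and an EGFP control, both under the CMV promoter, and an AAV vector for mouse Irf7 under a periostin promoter. The paper puts its mouse strains on a C57BL/6 J background, and the age of the animals behind these cultures was not given in the sources used here. The labels do not say whether the libraries came from separate animals or cultures, and the paper's legend for this experiment gives fewer biological replicates than there are libraries in a group. How the libraries map to those replicates is not known. The p-values therefore measure the spread between these libraries, which may be technical. The comparison asks which of these genes differed in RNA level between IRF7-transduced and control fibroblasts.

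Mouse Irf7 was read first, as the endogenous copy of the gene that the vector carries. The reads were mapped to the mouse genome, so a human IRF7 transcript has no row of its own in the table. Mouse Irf7 stood at 107, 147, 92.0 and 126 CPM (counts per 1000000 counts of the scaled library) in the 4 GFP libraries. In the 4 OEIRF7 libraries it stood at 14.9, 14.5, 14.9 and 16.4 CPM. Endogenous mouse Irf7 was thus lower in every library labelled as overexpressing, with a log2 fold change of -2.96 (SE 0.12) and an edgeR adjusted p of 7.7e-11. The table does not show the raised IRF7, and the groups are called by their labels throughout.

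The libraries held 24888589 to 27095611 counted reads in the GFP group and 24454801 to 28658826 in the OEIRF7 group. Fibroblast genes led the profile, with a summed level of 10 markers of 13460.2 to 14180.4 CPM in GFP libraries and 11856 to 12453 CPM in OEIRF7 libraries. Of 12 cardiomyocyte markers, 10 were too low to be tested and Myl3, a ventricular myosin light chain, had no count in any library. The cardiomyocyte sum was 10.5 to 14.2 CPM in GFP libraries and 8.84 to 10.5 CPM in OEIRF7 libraries, most of it Tnnt2, cardiac troponin T. Endothelial and macrophage markers were present at 229 to 241 and 279.6 to 335 CPM in GFP libraries, and at 233 to 259.8 and 348 to 386 CPM in OEIRF7 libraries.

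These factors form the core of the network that builds the heart. GATA and T-box proteins, the homeodomain protein Nkx2-5, the basic helix-loop-helix protein Hand2 and the MADS-box Mef2 proteins bind together at enhancers of cardiac muscle genes in the embryo. Several of them are also made by fibroblasts of the heart, which keep a record of their cardiac origin, and Gata4, Mef2c and Tbx5 are the trio best known for turning fibroblasts into cardiomyocyte-like cells when they are forced together.

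Of the 10 genes, 9 passed the filter on low counts and Nkx2-5 did not. Tbx20 was the gene that moved most, and it was 3.52-fold lower in OEIRF7 libraries (95% confidence interval 3.13 to 3.96). Gata4, Gata6 and Hand2 fell by 11.9% to 19.8%, and Mef2a rose by 24.8%. Mef2c, Meis1, Tbx2 and Tbx5 did not pass the test. A gene was called at an adjusted p under 0.05 in edgeR's quasi-likelihood test, with Benjamini-Hochberg adjustment over 13533 genes. By that rule 5 of the 9 tested genes were called, beside 58.9% of all genes tested, so the share called was near the background. By direction, 4 of 9 were lower, beside 29.9% of all genes, and 1 of 9 was higher, beside 29.0%. The median log2 fold change of the 9 genes was -0.19, while that of all tested genes was 0.00. The median absolute log2 fold change was 0.22 for the 9 genes, 0.25 for all tested genes and 0.22 for the 1119 tested genes that the table annotates as transcription factors.

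**Figure D1:**
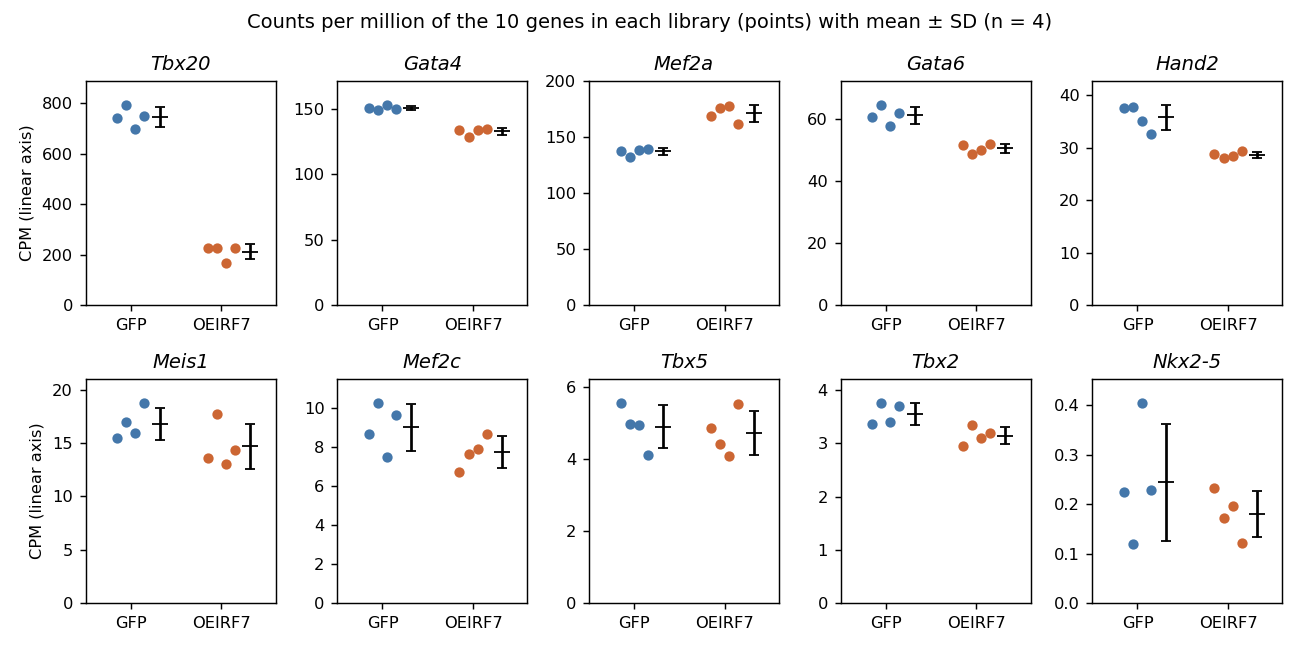
CPM (linear axes starting at 0) of the 10 genes in each of the 4 GFP and 4 OEIRF7 libraries, with points for libraries and black marks for the mean ± SD. The Tbx20 groups are far apart, at 699 CPM or more against 227 CPM or less, whereas the Tbx5 groups lie on top of each other.

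**Figure D2:**
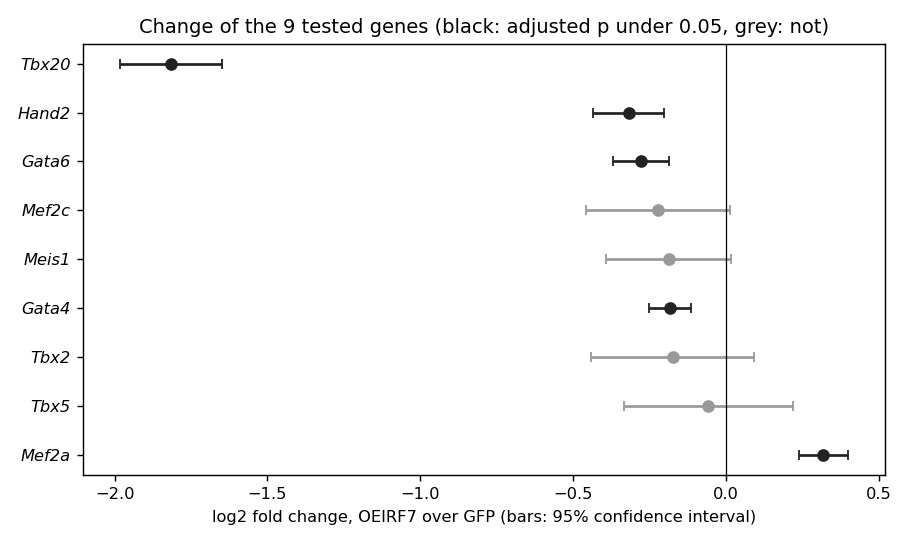
Log2 fold change of the 9 tested genes, OEIRF7 over GFP, with 95% confidence intervals from edgeR; black marks genes called at an adjusted p under 0.05 and grey the others. Tbx20 stands alone at -1.82, and the other 8 genes lie between -0.32 and 0.32.

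To show where the genes that moved begin, the 250 bases before the start site are given for Tbx20, which fell most, for Hand2, which fell, and for Mef2a, which rose. They come from RefSeq on build GRCm38.p6 and are written in the direction of the gene. Windows for Gata4, Gata6, Tbx2 and Tbx5 were not analysed here. Tbx20 lies on the minus strand of chromosome 9 (GRCm38, 24718138 to 24774303) and its window is chr9:24774304-24774553. Hand2 lies on the plus strand of chromosome 8 (57320983 to 57324633) with its window at chr8:57320733-57320982. Mef2a lies on the minus strand of chromosome 7 (67231163 to 67372858) with its window at chr7:67372859-67373108. Capitals mark matches, on either strand, to 10 motifs that are spelled out after the sequences.
Tbx20: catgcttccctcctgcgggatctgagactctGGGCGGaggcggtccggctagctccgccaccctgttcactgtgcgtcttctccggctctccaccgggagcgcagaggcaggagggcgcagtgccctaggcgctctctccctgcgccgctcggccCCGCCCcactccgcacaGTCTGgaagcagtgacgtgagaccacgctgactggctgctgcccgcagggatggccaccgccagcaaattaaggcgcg
Hand2: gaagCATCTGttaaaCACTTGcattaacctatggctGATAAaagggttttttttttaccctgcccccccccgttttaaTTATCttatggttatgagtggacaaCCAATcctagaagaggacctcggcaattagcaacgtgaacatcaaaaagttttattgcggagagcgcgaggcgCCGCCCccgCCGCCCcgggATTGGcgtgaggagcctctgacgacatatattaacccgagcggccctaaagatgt
Mef2a: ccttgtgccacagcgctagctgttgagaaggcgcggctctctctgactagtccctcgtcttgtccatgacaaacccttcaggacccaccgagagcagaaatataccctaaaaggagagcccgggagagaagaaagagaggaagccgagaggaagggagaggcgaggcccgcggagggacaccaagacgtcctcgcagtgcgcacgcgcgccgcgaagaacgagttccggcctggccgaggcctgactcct
The 3 windows differed in composition, with 68.8% G and C in Tbx20, 49.2% in Hand2 and 61.6% in Mef2a, beside a median of 52.4% over all 32851 windows.

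The Tbx20 window held 2 GC boxes (GGGCGG, present in 32.7% of all windows) and 1 SMAD-type element (CAGAC, 42.2%), the site bound by the transducers of TGF-β signals. The Hand2 window held 2 GATA elements (GATAA, 22.6%), 2 E-boxes (CANNTG, 66.2%), 2 CCAAT boxes (CCAAT, 33.8%) and 2 GC boxes. The Mef2a window held no match to any of the 10. No window of the 3 matched the interferon-stimulated response element in its GAAANNGAAAC form, the element that IRF proteins bind, which 0.685% of all windows held. The same was true of AP-1 (TGANTCA, 6.75%), T-box (GGTGTGA, 3.33%), MEF2 (CTANNNNTAG, 3.20%) and the TATA box (TATAAA, 12.4%). These matches describe letters in a short window and say nothing of binding.

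Tbx20 encodes a T-box repressor and activator that is needed for growth of the embryonic myocardium and of the endocardial cushions. The GFP libraries held 19816, 19772, 17260 and 19583 Tbx20 reads, and the OEIRF7 libraries 5835, 6536, 4269 and 5591. In CPM that was 739.5, 792, 699 and 747 against 226, 225, 168 and 227. Every OEIRF7 library lay far below every GFP library, and OEIRF7 replicate 3 was the lowest of its group, as GFP replicate 3 was of the other. The mean was 744 ± 38.1 CPM (SD, n = 4) in GFP and 211 ± 29.2 CPM (SD, n = 4) in OEIRF7. The log2 fold change was -1.82 (SE 0.078), with an edgeR adjusted p of 1.2e-10. With replicate 3 of both groups left out, a choice made after the data were seen, it was -1.75. Tbx20 was the only one of the 9 genes with a log2 fold change under -1, a line that 3.89% of all tested genes passed as lower. It had the fourth lowest log2 fold change among the 1119 transcription factor genes, after Irf7 (-2.96), Gli2 (-2.68) and Nr1h4 (-2.23), genes named after their values were seen. In a culture of mixed cells, fewer cells of a type and less RNA per cell cannot be told apart.

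Beside the fall of Tbx20, the 8 epicardial markers summed to 165 to 178 CPM in GFP libraries and 141 to 147 CPM in OEIRF7 libraries, although 3 of the 7 tested rose and 2 fell. The median log2 fold change of those 7 was 0.19. The 2 that fell were Upk3b, from 51.8 to 20.8 CPM, and Tbx18, from 72.6 to 59.3 CPM. Krt19, one of the 3 that rose, went from 4.75 to 18.5 CPM. The 8 mural cell markers summed to 125 to 139 and 108 to 131 CPM, with 3 of 7 higher and 3 lower. Among fibroblast markers 1 of 10 rose and 6 fell. Of the endothelial markers 3 of 8 rose and 1 fell, and of the macrophage markers 4 of 8 rose and none fell. Each of these last lists had 50% called, the epicardial list 71.4%, the mural list 85.7% and the fibroblast list 70%, beside 58.9% of all tested genes. The part of the cell mixture in the Tbx20 value was not tested.

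Tbx2 and Tbx5 were present at much lower levels. Tbx2, a repressor that keeps chamber muscle genes off in the atrioventricular canal, had 90, 94, 84 and 97 reads in GFP libraries and 76, 97, 79 and 79 in OEIRF7 libraries. In CPM the OEIRF7 libraries, at 2.95 to 3.34, all lay under the GFP libraries, at 3.36 to 3.77, by a gap far smaller than the spread within either group. The exact two-sided permutation test gave p = 0.0286, the smallest that 4 against 4 libraries can give. The edgeR fit gave a log2 fold change of -0.17 (SE 0.12) and an adjusted p of 0.24. The ratio of the summed reads, 331 to 365, was 0.887 with a 95% counting interval of 0.762 to 1.03. That interval takes in no change, and it covers counting error only. The permutation test and the edgeR fit thus differed, and a difference in Tbx2 was not settled at this depth.

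Tbx5, an activator mutated in Holt-Oram syndrome, had 149, 124, 122 and 108 reads in GFP libraries and 125, 128, 104 and 136 in OEIRF7 libraries. The 2 groups overlapped, at 4.12 to 5.56 CPM in GFP and 4.08 to 5.51 CPM in OEIRF7. The mean was 4.90 ± 0.592 CPM (SD, n = 4) in GFP and 4.71 ± 0.618 CPM (SD, n = 4) in OEIRF7. The log2 fold change was -0.06, with a 95% confidence interval of -0.33 to 0.22 and an edgeR adjusted p of 0.73. A change within those bounds could have been missed.

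Since Tbx2 and Tbx5 share a family with Tbx20, their ratios to it were tested within each library, where scaling has no part. The log2 ratio of Tbx5 to Tbx20 CPM was -7.25 ± 0.198 (SD, n = 4) in GFP and -5.48 ± 0.153 (SD, n = 4) in OEIRF7, a difference of 1.77. The ratio of Tbx2 to Tbx20 differed by 1.65. Each gave p = 0.0286 in the exact permutation test and 0.0476 after adjustment over 5 pairs of paralogues. The ratio of Tbx2 to Tbx5 differed by -0.12 with p = 0.54 in the same exact test. The change of Tbx20 was thus unequal to that of either paralogue. Both ratios to Tbx20 hold the Tbx20 values given above, so they add no separate evidence of its fall.

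Levels of different genes were compared in FPKM, which divides by transcript length. Summed over the 17 T-box genes of the table, the family stood at 112 to 126 FPKM in GFP libraries and 47.0 to 58.7 FPKM in OEIRF7 libraries. Tbx20 made up 74.3% to 77.8% of that sum in GFP libraries and 43.3% to 52.6% in OEIRF7 libraries. The other 16 genes together were at 27.9 to 30.2 and 26.7 to 28.5 FPKM, ranges that overlap. Of those, Tbx18, which marks the epicardium and sinus horn, fell (log2 fold change -0.29, edgeR adjusted p 4.4e-05). Tbx3, a paralogue of Tbx2 that patterns the conduction system, rose from 2.84 to 5.22 CPM (log2 fold change 0.88, edgeR adjusted p 1.8e-05). Of the 9 tested T-box genes, 2 were called higher and 2 lower, which is 44.4% beside 58.9% of all tested genes. The largest log2 fold change among them was 1.55, above that of Tbx3.

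**Figure D3:**
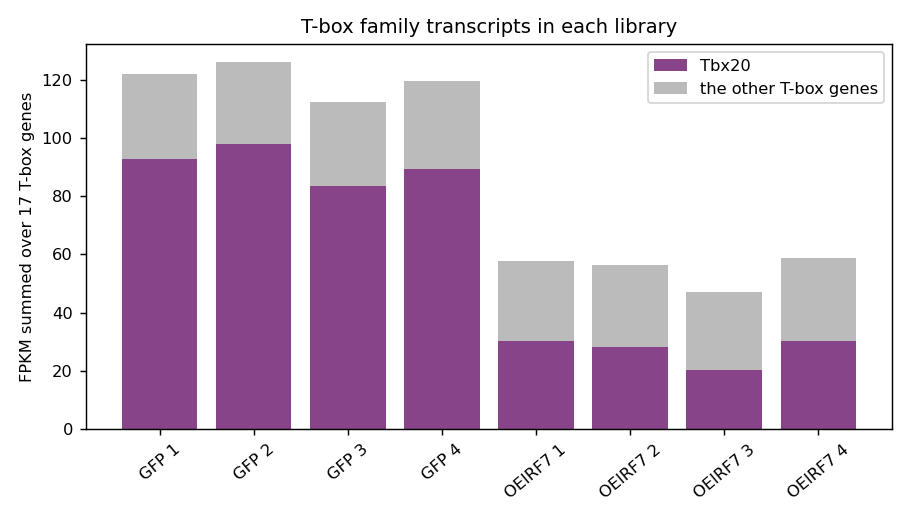
FPKM summed over the 17 T-box genes in each library, with Tbx20 in purple and the other genes in grey. The grey part is 26.7 to 30.2 FPKM in all 8 libraries, whereas the purple part is 83.4 FPKM or more in GFP libraries and 30.4 FPKM or less in OEIRF7 libraries.

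Gata4 and Gata6 both fell, by less than Tbx20. Gata4, a zinc finger activator of embryonic and hypertrophic heart genes, lies on chromosome 14 (GRCm38, 63198922 to 63271692, minus strand). It stood at 151, 149, 153 and 150.0 CPM in GFP libraries and at 134, 129, 134 and 135 CPM in OEIRF7 libraries. The groups did not overlap and varied little within, with means of 150.5 ± 1.58 and 133 ± 2.76 CPM (SD, n = 4 each). Gata4 fell with a log2 fold change of -0.18 (SE 0.032), with an edgeR adjusted p of 0.00016.

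Gata6, its close paralogue, which acts in smooth muscle and the outflow tract, lies on chromosome 18 (11052064 to 11085635, plus strand). It stood at 60.7, 64.4, 57.8 and 61.9 CPM in GFP libraries and at 51.4, 48.5, 50.1 and 51.9 CPM in OEIRF7 libraries. Again no OEIRF7 library reached a GFP library. Its log2 fold change was -0.28 (SE 0.043), with an edgeR adjusted p of 5.6e-05. The log2 ratio of Gata4 to Gata6 was 1.30 ± 0.0799 in GFP and 1.39 ± 0.0195 in OEIRF7 (SD, n = 4 each), and the difference of 0.09 gave p = 0.0857 in the exact permutation test and 0.107 after adjustment. The leave-one-out differences were 0.06 to 0.13, so a larger fall of Gata6 was not shown.

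Gata4 made up 70.5% to 72.6% of the summed FPKM of the 6 GATA genes in GFP libraries and 70.4% to 71.5% in OEIRF7 libraries. The sum itself was 74.3 to 77.0 FPKM in GFP libraries and 65.7 to 67.2 FPKM in OEIRF7 libraries. Gata2 and Gata3, known from blood and endothelium, went the other way from a low level, and their shares of the sum rose from 1.51% to 2.43% and from 1.25% to 2.15% on average. Gata2 stood at 3.45 and 4.72 CPM (log2 fold change 0.45, edgeR adjusted p 0.011) and Gata3 at 3.05 and 4.55 CPM (log2 fold change 0.57, edgeR adjusted p 0.0020). These paralogues were named after their values were seen. Zfpm1 and Zfpm2, the Friend of GATA cofactors that bind GATA zinc fingers, both rose, with log2 fold changes of 0.41 (edgeR adjusted p 4.6e-05) and 0.21 (edgeR adjusted p 0.00088).

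Hand2 is needed for the right ventricle and lies on chromosome 8. It stood at 37.5, 37.7, 35.2 and 32.6 CPM in GFP libraries and at 28.8, 28.1, 28.4 and 29.4 CPM in OEIRF7 libraries. The OEIRF7 libraries were tight and all below the lowest GFP library. Hand2 thus fell with a log2 fold change of -0.32 (SE 0.054), with an edgeR adjusted p of 0.00014. Hand2 made up at least 99.7% of the summed FPKM of Hand1 and Hand2 in every library, and Hand1 did not pass the filter on low counts. The annotated antisense gene Hand2os1 overlaps Hand2 and was not analysed here, and the strand setting of the counting was not given in the sources used here.

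Mef2a was the only one of the 9 genes that rose. It encodes a MADS-box factor that binds muscle and stress-response genes and is held in check by class IIa histone deacetylases. It stood at 138, 133, 139 and 139.9 CPM in GFP libraries and at 169, 176, 178 and 162 CPM in OEIRF7 libraries. Every OEIRF7 library was above every GFP library. This gave a log2 fold change of 0.32 (SE 0.038), with an edgeR adjusted p of 4.0e-06. Lysmd4 overlaps Mef2a on the opposite strand, and it had 237 to 274 reads in GFP libraries and 172 to 191 in OEIRF7 libraries, against 3314 or more for Mef2a. Lysmd4 went the other way (log2 fold change -0.53, edgeR adjusted p 9.3e-05).

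Mef2c, which drives the anterior heart field, had 232, 256, 184 and 252 reads in GFP libraries and 173, 221, 201 and 214 in OEIRF7 libraries. The groups overlapped, with 8.99 ± 1.22 CPM in GFP and 7.72 ± 0.813 CPM in OEIRF7 (SD, n = 4 each). The log2 fold change was -0.22, with a 95% confidence interval of -0.46 to 0.01 and an edgeR adjusted p of 0.098. The call turned on 1 library, since without GFP replicate 3 it was -0.30 with an edgeR adjusted p of 0.025, in a range of 0.025 to 0.65 over all alternatives. The log2 ratio of Mef2a to Mef2c was 3.94 ± 0.221 in GFP and 4.48 ± 0.181 in OEIRF7 (SD, n = 4 each). That difference of 0.53 gave p = 0.0286 in the exact permutation test and 0.0476 after adjustment. The adjustment took in the ratios to Tbx20, which the fall of Tbx20 set apart, so the adjusted value depends on them. This ratio also holds the Mef2a values given above, so it adds no separate evidence of the rise of Mef2a.

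The summed FPKM of the 4 Mef2 genes was 45.7 to 49.6 in GFP libraries and 59.0 to 61.2 in OEIRF7 libraries. Mef2a was 59.3% to 61.9% of it in GFP and 58.6% to 63.4% in OEIRF7. Mef2d, which was named after its values were seen, rose beside it from 71.8 to 85.2 CPM (log2 fold change 0.25, edgeR adjusted p 0.00062). The share of Mef2c was 5.47% and 4.15% on average.

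Meis1, a homeodomain partner of Pbx and Hox proteins that restrains the cardiomyocyte cell cycle, had 414, 424, 393 and 493 reads in GFP libraries and 352, 515, 332 and 355 in OEIRF7 libraries. OEIRF7 replicate 2 lay among the GFP libraries, and the other 3 lay below them. The log2 fold change was -0.19, with a 95% confidence interval of -0.39 to 0.02 and an edgeR adjusted p of 0.11. Without OEIRF7 replicate 2 it was -0.30, with an edgeR adjusted p of 0.0081, in a range of 0.0081 to 0.33 over all alternatives. With the replicate number as a block it was -0.19 with an edgeR adjusted p of 0.045. Meis1 was the smallest of its family in FPKM, with 16.8% of the sum of the 3 Meis genes in GFP and 15.3% in OEIRF7 on average.

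Nkx2-5, the homeodomain factor that marks cardiac progenitors and working myocardium, was near the limit of detection. It had 6, 3, 10 and 6 reads in GFP libraries and 6, 5, 5 and 3 in OEIRF7 libraries. The ratio of the summed reads, 19 to 25, was 0.743 with a 95% counting interval of 0.387 to 1.41. A difference was not detectable at this depth.

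Of the 9 tested genes, 6 had groups that did not overlap in CPM, namely the 5 called genes and Tbx2, beside 53.8% of all genes tested. In FPKM the order in GFP libraries was Tbx20 (91.0), Gata4 (53.7), Mef2a (29.0), Gata6 (19.4), Hand2 (15.1), Meis1 (4.85), Mef2c (2.63), Tbx5 (1.79), Tbx2 (0.973) and Nkx2-5 (0.163). In OEIRF7 libraries Tbx20 dropped behind Gata4 and Mef2a, at 27.3 FPKM, with Gata4 at 47.1 and Mef2a at 36.9, and the order of the other genes was the same. Neighbours in either order did not overlap over the 4 libraries, except Mef2c and Tbx5, which overlapped in both groups. Among the 1119 tested transcription factor genes, Tbx20 ranked 14 by mean FPKM in GFP and 100 in OEIRF7, whereas Gata4 ranked 36 and 50 and Mef2a 88 and 65. FPKM of Tbx5 is less certain, because FPKM per CPM varied 1.87-fold between libraries for it and 1.35-fold for Mef2c, but at most 1.13-fold for the other 8 genes.

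**Figure D4:**
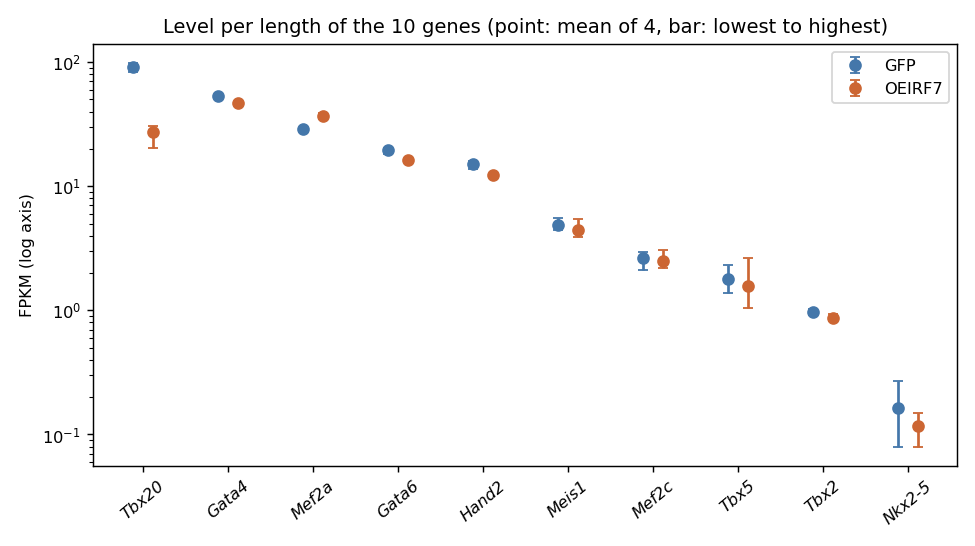
FPKM (log axis) of the 10 genes, with points for the mean of 4 libraries and bars from the lowest to the highest library. Tbx20 leads in GFP at 91.0 and lies under Gata4 and Mef2a in OEIRF7 at 27.3, and levels span from there to 0.163 and 0.118 for Nkx2-5.

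Other genes of the network were read from 3 lists. Of 24 other cardiac developmental transcription factors, 16 were tested, 7 rose and 4 fell, with a median log2 fold change of 0.18. The share called was 68.8%, beside 58.9% of all tested genes, of which 29.0% were higher and 29.9% lower. Tcf21, which specifies fibroblasts from the epicardium and also stands in the fibroblast marker list, fell from 58.3 ± 6.13 to 23.1 ± 3.49 CPM (SD, n = 4 each), a log2 fold change of -1.33 (edgeR adjusted p 2.0e-08). Its lowest library was replicate 3 in both groups, as for Tbx20. Foxc1, a forkhead factor of the outflow tract, fell by 0.64 on the log2 scale (edgeR adjusted p 3.0e-06). Smyd1, a muscle methyltransferase, fell from 1.26 to 0.309 CPM (log2 fold change -1.99, edgeR adjusted p 8.8e-05). Irx3, a homeodomain factor of the conduction system, rose from 0.825 to 2.16 CPM (log2 fold change 1.38, edgeR adjusted p 5.6e-05).

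All 22 listed partners and regulators were tested, 4 rose and 11 fell, with a median log2 fold change of -0.13. The share called was 68.2%, again beside 58.9% of all tested genes. Smarcd3, the BAF chromatin remodelling subunit that lets Gata4 and Tbx5 act on heart genes, fell from 31.6 ± 2.30 to 15.9 ± 0.757 CPM (SD, n = 4 each). Its log2 fold change was -0.99, with an edgeR adjusted p of 8.0e-09. Myocd, the coactivator of serum response factor, fell from 2.07 to 1.13 CPM (log2 fold change -0.87, edgeR adjusted p 0.0046). Hdac5, a class IIa deacetylase that represses Mef2 proteins, fell from 39.5 to 24.7 CPM (log2 fold change -0.68, edgeR adjusted p 7.5e-07). Among the other class IIa deacetylases listed, Hdac7 fell (log2 fold change -0.51, edgeR adjusted p 7.6e-08). Hdac4 (0.09, edgeR adjusted p 0.29) and Hdac9 (0.33, edgeR adjusted p 0.26) were not called. A link of these genes to the Mef2a value was not tested.

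Of 20 genes listed as downstream of these factors, 9 were tested, 5 rose and 1 fell, with a median log2 fold change of 0.28. The list does not separate activated from repressed genes, and not all of its genes are confined to heart muscle. These 6 of 9 are 66.7%, also beside 58.9%. Nppb, the B-type natriuretic peptide gene, rose from 0.643 ± 0.198 to 4.30 ± 0.661 CPM (SD, n = 4 each), a log2 fold change of 2.73 (edgeR adjusted p 6.8e-08). Gja1, which encodes a gap junction connexin, rose from 91.0 to 157 CPM (log2 fold change 0.78, edgeR adjusted p 1.0e-10). Des, the muscle intermediate filament desmin, rose from 0.813 to 1.73 CPM (log2 fold change 1.08, edgeR adjusted p 0.014), although its groups overlapped. Smad7 and Cdkn1a also rose, with log2 fold changes of 0.39 (edgeR adjusted p 7.1e-07) and 0.28 (edgeR adjusted p 1.9e-06). Tnnt2 was the one that fell, by 0.54 on the log2 scale (edgeR adjusted p 0.00057). The other 11, among them Nppa, Myh6 and Actc1, were too low to be tested.

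**Figure D5:**
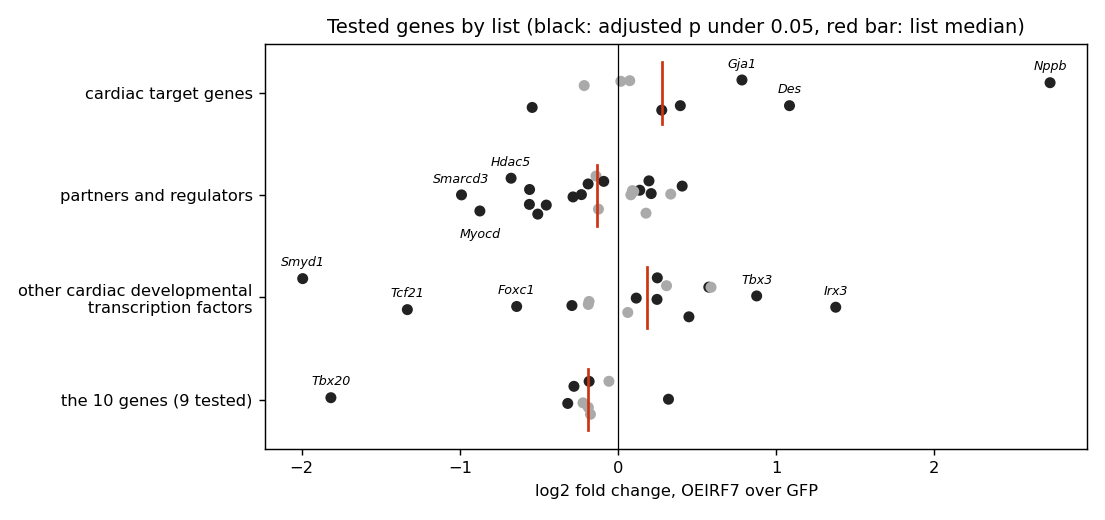
Log2 fold change, OEIRF7 over GFP, of the tested genes of each list, with black points for an adjusted p under 0.05 in edgeR, grey points for the rest and red bars for the list medians (-0.19, 0.18, -0.13 and 0.28 from bottom to top). Names are given for called genes at 0.58 or more from 0, and Tbx20 is the sole such gene among the 10.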

How the data were processed

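RNA-seq libraries of primary murine cardiac fibroblasts were grouped by their titles, 4 GFP and 4 OEIRF7. Per the methods, the authors used Trimmomatic for trimming, HISAT2 for mapping to GRCm38 and HTSeq-count for counting, and the raw counts were deposited. FPKM values from Cufflinks, deposited beside them, are rounded to 2 decimals. Tool versions and the strand setting were not given in the sources used here, and different extraction and library kits are named by the labels and by the paper. The deposited columns of group means, fold change, p-value and FDR belong to the authors' own comparison and were not used. In the table, 121 symbols in which letters had been replaced by GFP were restored by Ensembl identifier, and 22219 of 22274 identifiers were found in GENCODE M21, which gave the coordinates. No count was recorded for 3816 genes.

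Group comparison of the counts used edgeR 4.0.16 under R 4.3.3 (filterByExpr by group, TMM, glmQLFit, glmQLFTest, Benjamini-Hochberg adjustment over 13533 genes). CPM used TMM library sizes, with factors of 0.989 to 1.01. Log2 ratios and single values were compared by exact two-sided permutation tests over the 8 libraries in scipy 1.17.1. No replicate pair agreed within sampling noise (chi-square per degree of freedom 2.69 to 8.67). Alternatives were DESeq2 1.42.0, limma 3.58.1 on log2 FPKM with a pseudocount of 1 or 0.1 (mean FPKM above 0.1), upper-quartile or no scaling, a filter at 1 count in total or at 10 counts in each library, a replicate block and leaving out libraries. The test was run on simulated data before use. Motifs were searched in the 250 bases before each start site of the RefSeq promoter table.

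The genes and the lists were chosen with earlier results of these data known. Named were all 10 genes, Irf7, genes overlapping one of the 10 or starting within 5000 bases of its start, markers by list, and list genes called at an absolute log2 fold change of 0.58 or more, at most 8 per list. The other named genes are paralogues, cofactors, high ranks or further list genes chosen after their values were seen. Of 13 annotated neighbours, 1 (Lysmd4) had a row, and the others were not analysed here.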

Additional observations from a re-analysis of the deposited data

Results flagged for a closer look

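In all, 76 group values were examined, each measure in 2 groups of 4 libraries. They were CPM of the 10 genes, the named list genes, Irf7 and Lysmd4, FPKM of the 10 genes and the 5 log2 ratios. Of these 76, 3 held a library far from the other 3 by Dixon's criterion. For independent values chance gives about 1 in 20, but these values share genes and libraries. Whether chance gave the 3 was not tested. Tbx20 in OEIRF7 replicate 3 stood at 168 CPM, while the other 3 libraries stood at 225 to 227 CPM. Gata4 in OEIRF7 replicate 2 stood at 129 CPM, while the others stood at 134 to 135 CPM. Irx3 in GFP replicate 4 stood at 1.14 CPM, while the others stood at 0.689 to 0.746 CPM. All 3 groups stayed apart from the other group.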

How the results depend on the processing

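Tbx20, Gata4, Gata6, Hand2 and Mef2a kept their direction and were called under all 17 alternatives, with log2 fold changes of -1.85 to -1.71, -0.19 to -0.16, -0.30 to -0.24, -0.36 to -0.27 and 0.30 to 0.35. Tbx2 and Tbx5 were called under none. The number of genes called among the 10 was 5 or 6 throughout. The cause of the added calls was not tested. They were Mef2c without GFP replicate 3 (log2 fold change -0.30) and without replicate 3 of both groups (-0.31), and Meis1 without OEIRF7 replicate 2 (-0.30) and under the replicate block (-0.19). The log2 ratio of Tbx5 to Tbx20 differed by 1.52 in FPKM + 0.1 rather than 1.77. Same-numbered libraries deviated together only weakly (correlations 0.079 to 0.138), yet all 8 libraries correlated best with their own number. The labels give them no shared batch, so whether they share a preparation is not known. The replicate block moved the calls from 7969 to 8211 genes and from 5 to 6 of the 10. Higher and lower calls among all genes were 3924 and 4045, against 4346 and 3728 without TMM scaling and 4093 and 3309 with limma on FPKM. No direction of a called gene among the 10 turned. Genes near or under 1 CPM, such as Nkx2-5, rest on few reads.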
